A study of Mus musculus with 4 samples.

Results

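The genes described here encode the proteins of the mitochondrial ribosome, measured in mouse blastocysts with and without a paternal genome. Members are the genes whose symbol begins with Mrpl or Mrps followed by a digit and for which the array holds a probe set annotated to that gene alone. Where a gene had several, the brightest by its mean over the 4 arrays was used. This gave 76 genes of 18193 with such a probe set, 47 named for the large subunit (Mrpl) and 29 for the small subunit (Mrps). All 76 matched the RefSeq gene table (assembly GRCm38.p6), lie on 17 chromosomes and include 0 genes on the X chromosome. That table lists 78 protein-coding genes of these names. Mrpl30 and Mrpl53 are represented only by probe sets shared with another gene and were not counted as members.

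Blastocysts, embryos with a fluid-filled cavity, an outer trophectoderm and an inner cell mass, were collected on day 4 (96 hours). The parthenogenetic diploid group came from activated oocytes without sperm and so holds maternal chromosomes only, and the fertilized diploid group came from zygotes. The parthenogenetic tetraploid and fertilized tetraploid groups had been made by fusion of embryos of the respective origin. Each of the 4 groups was 1 pool of 30 embryos on 1 Affymetrix array, with a pair of amplification rounds per the labels, no strain is named, and the series takes the tetraploid array of an origin in place of a repeat of the diploid one.

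Mitochondria translate the few proteins encoded by their own genome on a ribosome whose RNA is mitochondrial and whose proteins are all encoded in the nucleus and imported. Its large subunit carries the peptidyl transferase centre and the exit tunnel, and its small subunit decodes the messenger RNA. Many of its proteins descend from bacterial ribosomal proteins, others are found only in mitochondria, and the products are core subunits of oxidative phosphorylation, on which the blastocyst draws heavily. ETS family factors (GABP), NRF1 and YY1 are known regulators of nuclear genes for mitochondrial proteins.

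The DNA just upstream of these genes is shown first, for 5 members on which results below turn and for Mrpl32 and Mrpl36, chosen for their matches alone. The RefSeq promoter windows used here cover 73 start sites of 67 of the 76 members, each with 300 bases (250 before and 50 after the start). Stretches are the 120 bases directly before the start, 5′ to 3′ in the direction of transcription, with capitals marking a match on either strand to the core of an ETS site (CCGGAAG), of an NRF1 site (GCGCATGC) or of a YY1 site (AAGATGGC). NRF1 matches on the 2 strands can overlap each other. On the brightest probe sets, Mrpl22 had the smallest p-value between the origins of any member, and it holds an ETS and an NRF1 match. Mrpl32 holds the most NRF1 matches, and Mrpl36 a YY1 match upstream of its start. Mrps18a and Mrps31 were among the small subunit genes with the most negative difference between origins, and Mrps27 and Mrpl14 had means above 0, none of them past the adjusted threshold.
Mrpl22, chr11:58171544-58171663, plus strand: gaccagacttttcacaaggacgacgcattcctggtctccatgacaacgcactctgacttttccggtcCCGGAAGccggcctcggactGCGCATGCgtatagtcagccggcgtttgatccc
Mrpl32, chr13:14613038-14613157, minus strand: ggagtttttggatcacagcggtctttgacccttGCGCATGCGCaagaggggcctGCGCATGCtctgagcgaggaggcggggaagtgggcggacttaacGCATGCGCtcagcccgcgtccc
Mrpl36, chr13:73330889-73331008, plus strand: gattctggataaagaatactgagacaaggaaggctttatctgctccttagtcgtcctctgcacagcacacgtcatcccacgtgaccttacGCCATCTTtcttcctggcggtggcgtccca
Mrps18a, chr17:46110884-46111003, plus strand: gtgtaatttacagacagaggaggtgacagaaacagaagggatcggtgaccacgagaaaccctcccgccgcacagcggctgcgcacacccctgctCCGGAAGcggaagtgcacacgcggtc
Mrps31, chr8:22411220-22411339, plus strand: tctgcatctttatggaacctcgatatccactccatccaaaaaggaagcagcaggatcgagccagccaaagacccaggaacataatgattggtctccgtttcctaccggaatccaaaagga
Mrps27, chr13:99344666-99344785, plus strand: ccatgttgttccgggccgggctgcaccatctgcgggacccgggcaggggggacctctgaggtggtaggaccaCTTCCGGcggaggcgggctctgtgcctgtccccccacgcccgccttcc
Mrpl14, chr17:45686229-45686348, plus strand: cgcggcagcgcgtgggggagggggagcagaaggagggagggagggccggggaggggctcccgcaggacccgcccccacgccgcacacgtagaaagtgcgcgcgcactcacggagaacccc

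Matches to the ETS core lay in 25 of the 73 windows (34.2%), against 11.6% of the windows of protein-coding genes and 8.86% of all windows. The windows counted for these backgrounds do not cover every chromosome. The YY1 core lay in 12 windows (16.4%, against 3.05% of protein-coding and 2.75% of all windows), and in 8 of 12 matches it began after the start site. The NRF1 core lay in 8 windows (10.96%, against 3.52% and 2.71%), 7 of them of large subunit genes. The letters of a TATA box (TATAAA, on either strand) were found in 5 windows (6.85%, against 12.6% and 13.6%). They began at positions -190 to -68 from the start site. These matches are descriptions of letters. The median difference between origins was -0.36 for the 25 genes with an ETS match and -0.44 for the 42 without, on the log2 scale used below.

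Signals are MAS5 values, the Affymetrix summary of a probe set on a linear scale, and differences are given on the scale log2(signal + 10), where -1 stands for a lowering to about 50% and dim genes are understated. With 4 arrays, the precision of every value is limited. Array-wide quality bears on the members in a few places. The parthenogenetic tetraploid array had the highest ratio of the 3′ to the middle control probe set of Actb (9.28, against 5.13 to 7.55) and of Gapdh (5.22, against 3.72 to 4.08), and the lowest correlations with the other arrays. Set against the 5′ control instead, it did not stand apart, at 127 for Actb (others 108 to 137) and 24.3 for Gapdh (others 18.98 to 27.3). Trophectoderm markers were all above the control floor (the 95th percentile of 27 bacterial control probe sets on each array, 99.7 to 150.3), with a summed signal of 85591 to 97638. The summed signal of 7 epiblast markers was 17223, 8932, 17043 and 15073, and that of 6 primitive endoderm markers 28148, 14802, 31126 and 27611, with the diploid before the tetraploid array of each origin and the parthenogenetic arrays first. The parthenogenetic tetraploid array was thus lowest for both inner lineages, and the part of this in the members' values was not tested. In such pools fewer cells of a type and less RNA per cell cannot be told apart. Of the markers of other RNA sources, 4 to 6 of 7 oocyte genes and 3 to 6 of 6 cumulus genes were at or below the floor on each array, as were 3 to 4 of 5 fibroblast and 1 to 2 of 3 blood genes.

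Most members were detected throughout: 73 of 76 lay above the control floor on all 4 arrays. The exceptions were Mrpl34 on the parthenogenetic diploid, Mrps27 on the fertilized tetraploid and Mrpl54 on both diploid arrays. All 76 passed the filter for testing, a signal no lower than the array's median on 2 or more arrays. The median signal of the 47 large subunit genes was 1191 on the parthenogenetic diploid and 1005 on the parthenogenetic tetraploid array, against 1592 and 1385 on the fertilized arrays of the same ploidies. For the 29 small subunit genes the medians were 897 and 801 against 1171 and 1146. Both subunits thus had their lowest median on the parthenogenetic tetraploid and their highest on the fertilized diploid array. Gene by gene, 46 of 76 members had their lowest signal on the parthenogenetic tetraploid array (60.5%, against 31.0% of all genes kept by the filter), and 46 had their highest on the fertilized diploid array (60.5%, against 26.1%).

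**Figure D1:**
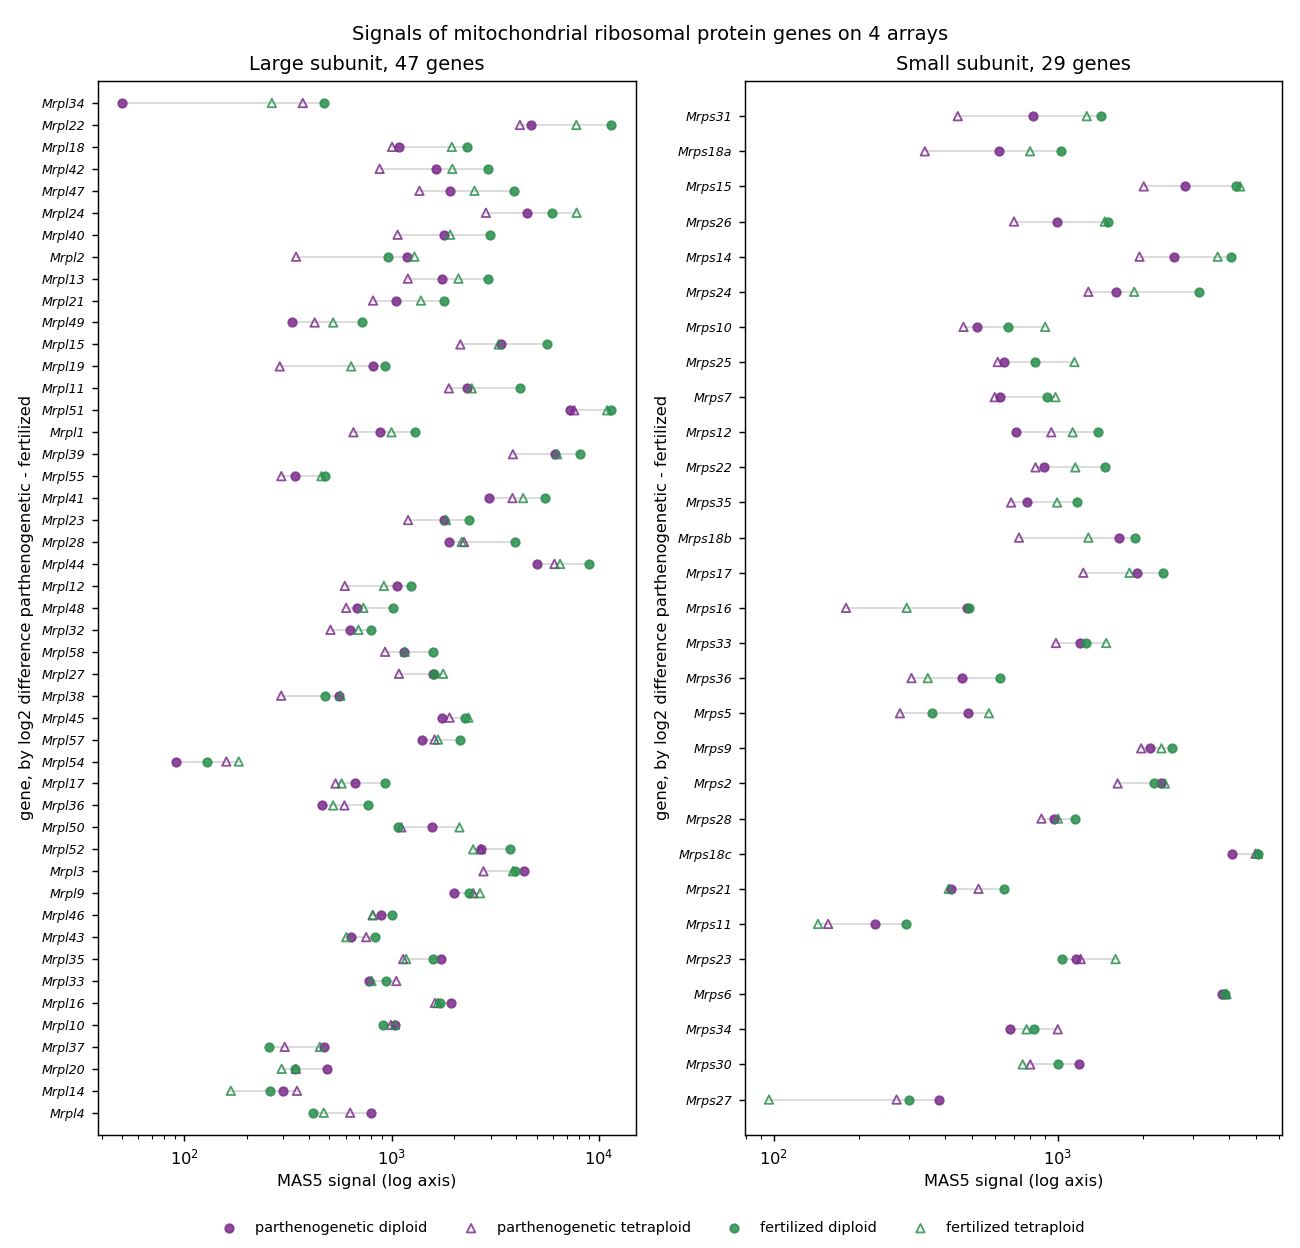
MAS5 signal (log axis) of each large subunit gene (left) and small subunit gene (right) on the 4 arrays, 1 point per array, ordered by the difference between origins with the most negative at the top. Purple marks parthenogenetic and green fertilized embryos, circles diploid and open triangles tetraploid ones, and in 39 of 76 rows both purple points lie left of both green ones.

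The main comparison of the series asks how parthenogenetic and fertilized blastocysts differ. Mitochondrial ribosomal protein genes were mostly lower in the parthenogenetic pools, by modest amounts and in both subunits, and 0 of 76 passed the test for single genes. The log2 difference (mean of the parthenogenetic minus mean of the fertilized arrays) was below 0 for 65 of 76 members, 39 of 47 large and 26 of 29 small subunit genes, while 48.5% of the 11341 genes kept by the filter were below 0. The median was -0.42 for the large and -0.35 for the small subunit, against 0.02 for the genes kept and 0.09 for all genes with a probe set. Quartiles were -0.65 and -0.17 over all members, against -0.36 and 0.42 over the genes kept, so the ranges overlapped.

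In limma's fit across 23746 probe sets, with 2 arrays per origin and Benjamini-Hochberg adjustment, 0 members passed an adjusted p of 0.05 (0.173% of all probe sets did, 41 of 23746). The smallest adjusted p of a member on its brightest probe set was 0.22, for Mrpl22. At an unadjusted p under 0.05, 15 members were lower (19.7%) and 0 higher, beside 4.19% of probe sets lower and 4.67% higher. Both parthenogenetic signals lay below both fertilized ones for 39 members (51.3%, beside 19% of probe sets) and above both for 3 (3.95%, beside 21.5%). The 39 were 23 of 47 large and 16 of 29 small subunit genes, 48.9% and 55.2%. The count of 15 depended on single arrays: leaving out the parthenogenetic arrays in turn gave 24 (diploid left out) and 7 (tetraploid left out), and leaving out the fertilized ones gave 5 and 12. It was also 30 with the arrays scaled to a common median and 3 without the intensity trend of the model. Without the parthenogenetic diploid array 5 members passed the adjusted threshold (Mrpl2, Mrpl22, Mrpl24, Mrpl42 and Mrps31, among 715 probe sets in all), and without the parthenogenetic tetraploid array 1 did (Mrpl34, among 175).

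**Figure D2:**
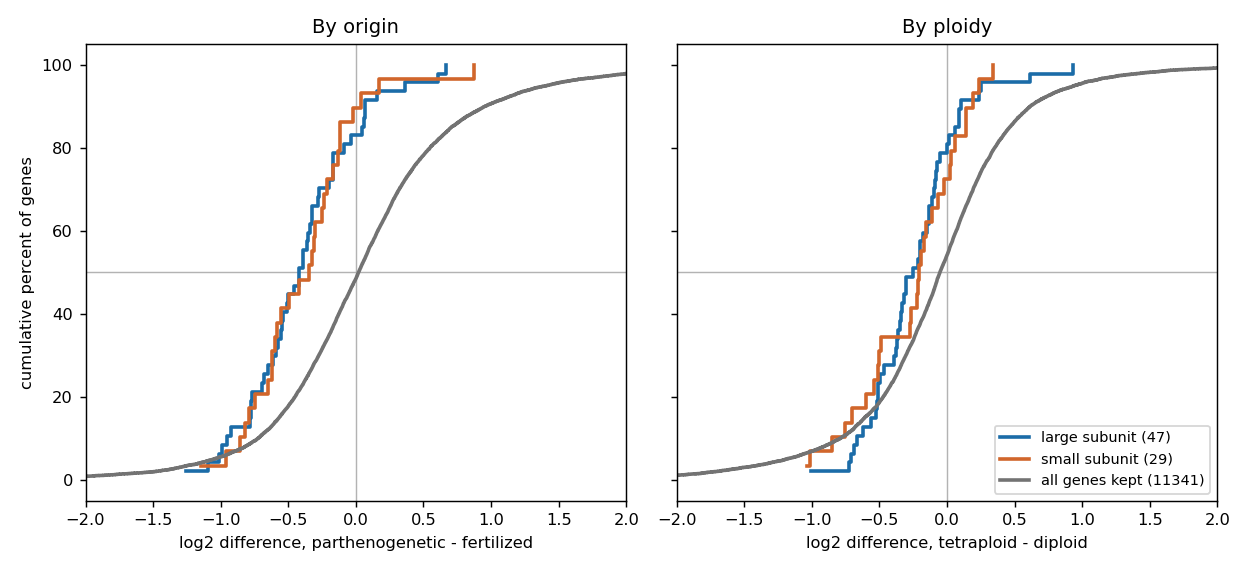
Cumulative percent of genes against the log2 difference between origins (left) and between ploidies (right), for 47 large subunit genes, 29 small subunit genes and the 11341 genes kept by the filter. The medians of both subunits lie left of that of the genes kept, at -0.42 and -0.35 against 0.02 for origin, and at -0.25 and -0.21 against -0.05 for ploidy. The lowest tail of all genes reaches further left than either subunit.

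How the arrays are brought to a common scale sets the zero of these values. The deposited signals share 1 trimmed mean across arrays, while their medians run from 104 to 154. Scaling to a common median instead shifted the median of all genes kept to -0.30, and the subunits to -0.74 and -0.66, with 72 of 76 members below 0. Relative to all genes kept, the large subunit stood at -0.44 under both scalings and the small subunit at -0.37 and -0.36. An intensity-dependent scaling (cyclic loess), chosen after seeing the data, gave -0.37 and -0.36 relative to all genes kept, with the differences of 63 of 76 members below 0.

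Among large subunit genes, Mrpl22, the counterpart of a bacterial protein that lines the exit tunnel, had signals of 4689 and 4155 in parthenogenetic diploid and tetraploid embryos, against 11405 and 7777 in fertilized ones. Its log2 difference was -1.09 with a standard error of 0.27 (n = 2 arrays per origin), 2.13-fold lower. Both parthenogenetic values lay far below both fertilized ones.
Mrpl18, related to a bacterial protein that binds a ribosomal RNA, measured 1090 and 1005 against 2298 and 1952 (-1.01 ± 0.30, 2.01-fold lower, limma adjusted p 0.35). Its arrays of 1 origin differed little and its groups did not overlap. Mrpl47, whose bacterial relative sits at the tunnel exit, measured 1906 and 1363 against 3909 and 2509 (-0.95 ± 0.32, adjusted p 0.44). Here too the groups stood apart, with the lower signal of each origin in the tetraploid pool.

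Mrpl42, a protein with no bacterial relative, measured 1630 and 876 against 2911 and 1962 (-0.99 ± 0.36, adjusted p 0.48). It was lower by origin in both ploidies and also lower in the tetraploid array of both origins. Mrpl32 and Mrpl36, whose upstream sequences are shown above, both had means below 0. Mrpl32 measured 627 and 507 against 798 and 692 (-0.39), without overlap, and Mrpl36 463 and 592 against 766 and 523 (-0.27), with overlap. The other large subunit genes at an unadjusted p under 0.05, named after their values were seen, were Mrpl24 (-0.92), Mrpl40 (-0.79), Mrpl13 (-0.77), Mrpl21 (-0.77) and Mrpl51 (-0.59). Mrpl51 was the brightest of these in signal, at 7270 and 7599 against 11459 and 10949, with almost no difference between ploidies.

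Mrpl34, the counterpart of a small bacterial protein, had the most negative large subunit mean (-1.26 ± 0.75, adjusted p 0.64), but this mean rests on 1 array. Its parthenogenetic signals were 50.3 and 373 and its fertilized ones 470.0 and 265. Only the parthenogenetic diploid value is low, below the floor of 113 of its array, and the groups overlap. Without that array the difference was 0.08, and a second probe set for the gene measured 190.1 and 151 against 314 and 254.

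A few large subunit genes went the other way. Mrpl4, whose bacterial relative reaches into the exit tunnel, measured 799 and 631 in parthenogenetic against 416 and 471 in fertilized embryos (0.67 ± 0.36, 1.59-fold higher, adjusted p 0.60). Mrpl14, the subunit-interface protein to which the assembly factor Malsu1 binds, measured 301 and 350 against 260.2 and 168 (0.61 ± 0.46, adjusted p 0.70). Mrpl20, related to a bacterial protein of early subunit assembly, measured 490 and 346 against 341 and 295 (0.37 ± 0.40, adjusted p 0.80). These are the 3 members whose parthenogenetic signals both lay above the fertilized ones, Mrpl20 by only a narrow margin in its tetraploid pool. Mrpl37, found only in mitochondria (471 and 305 against 256 and 451, 0.15), and Mrpl10, of the stalk base (1043 and 992 against 905 and 1038, 0.07), overlapped between origins. Scaled to a common median, Mrpl37 and Mrpl10 were below 0, at -0.16 and -0.25.

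Among small subunit genes, Mrps31, a protein found only in mitochondrial ribosomes, measured 816 and 445 in parthenogenetic against 1425 and 1267 in fertilized pools. Its difference was -1.14 ± 0.37, 2.21-fold lower, at a limma adjusted p of 0.40. The groups did not overlap, and the parthenogenetic tetraploid value was the lowest. Mrps15, a protein with a bacterial counterpart, measured 2814 and 2011 against 4255 and 4394 (-0.86 ± 0.28, adjusted p 0.42). Its fertilized arrays were nearly equal while the parthenogenetic ones differed. The other small subunit genes at an unadjusted p under 0.05, named after their values were seen, were Mrps18a, Mrps26 (-0.82), Mrps14 (-0.79) and Mrps24 (-0.75).

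At the other end, Mrps27, a pentatricopeptide repeat protein of the small subunit, measured 382 and 271 in parthenogenetic against 300 and 96.4 in fertilized embryos (0.87 ± 0.58, adjusted p 0.66). The groups overlapped, and the fertilized tetraploid value lay below its floor of 99.7. Mrps34, found only in mitochondria, measured 679 and 1001 against 826 and 778 (0.04), and was at -0.28 when the arrays were scaled to a common median. Mrps6, whose bacterial relative sits on the platform of the small subunit, was chosen after its values were seen as a member that hardly varied: 3799, 3898, 3890 and 3935.

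The symbols of 3 members do not match their place. Mrps18a and Mrps30 are components of the large subunit in the known structures, and Mrps36 belongs to an oxoglutarate dehydrogenase complex rather than to the ribosome. Mrps18a measured 622 and 341 in parthenogenetic against 1027 and 800.3 in fertilized embryos (-0.96 ± 0.39, adjusted p 0.53), with no overlap. Mrps30 measured 1194 and 801 against 1000.5 and 754 (0.17, and -0.15 when scaled to a common median), overlapping between origins. Mrps36 measured 461 and 306 against 629 and 349 (-0.31 ± 0.43), also with overlap. With subunits assigned by structure, the medians were -0.42 for the large and -0.38 for the small subunit.

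Grouped by a list of genes with a bacterial counterpart, and by symbol for the subunit, medians were below 0 on and off that list. In the large subunit the median was -0.51 for 29 genes with a counterpart (22 lower) and -0.37 for 18 mitochondria-specific genes (17 lower). In the small subunit it was -0.33 for 16 genes with a counterpart (16 lower) and -0.49 for the 13 others (10 lower). Those 13 hold Mrps18a, Mrps30 and Mrps36, whose symbols do not match their place, and Mrps18b. Of the Mrps18 genes, only Mrps18c was counted as having a counterpart, so the 13 are not all specific to mitochondria by descent. Without overlap between origins lay 12 of 29, 11 of 18, 9 of 16 and 7 of 13 of these genes on the lower side. Mrpl46 and Mrps11, the only neighbouring pair of members on a chromosome, differed by -0.09 and -0.12.

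Each origin comparison can also be read inside 1 ploidy, with 1 array a side and no test. Between diploid pools the large subunit median was -0.46 and the small subunit median -0.35. Between tetraploid pools they were -0.36 and -0.53. Of the members, 50 of 76 (65.8%) were lower in both pairs, 5 higher in both and 21 of opposite sign, against 27.5% lower and 30.8% higher in both among the genes kept. The direction was thus shared by both pairs of arrays for most members. At least 2-fold lower signals were seen for 6 members in the diploid pair (10.3% of probe sets) and 9 in the tetraploid pair (12.4%). At least 2-fold higher were 0 members in the diploid (11.4% of probe sets) and 2 in the tetraploid pair (15.9%). Lower by 2-fold in both pairs were 0 members on their brightest probe sets, beside 2.21% of probe sets (524). A dimmer probe set of Mrpl15, given below, was lower by more than 2-fold in both.

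**Figure D3:**
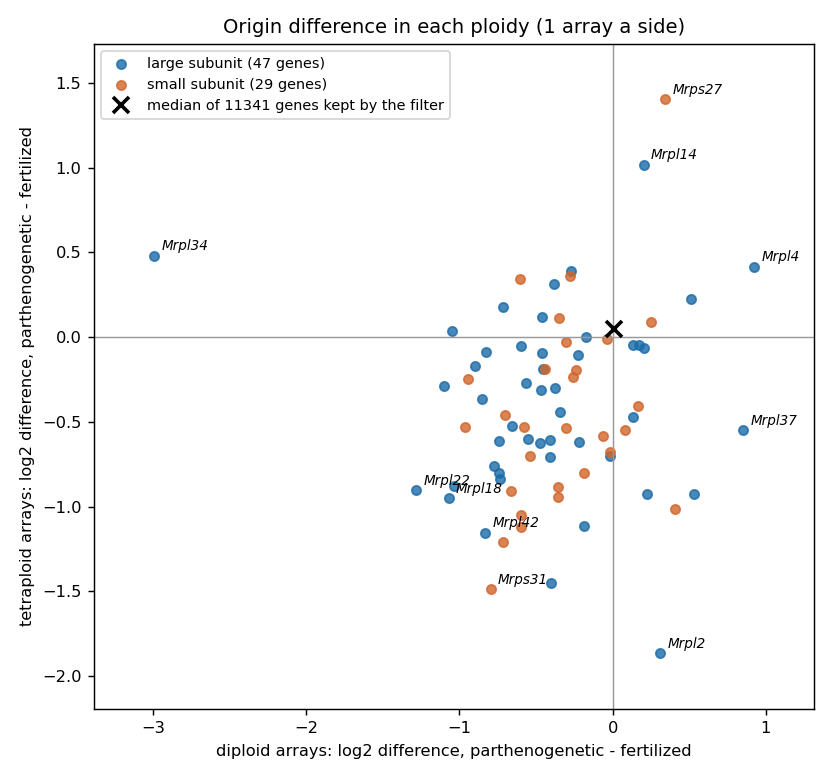
Log2 difference between parthenogenetic and fertilized embryos for each member, on the diploid arrays (horizontal) and on the tetraploid arrays (vertical), with 1 array a side. Of 76 points, 50 lie in the lower left, 5 in the upper right and 21 in the others, and the cross marks the median of all genes kept. Mrpl34 stands alone at -2.99 and 0.48.

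The comparison by ploidy kept origin as a term in the model and had 1 residual degree of freedom. Members were mostly lower in the tetraploid pools, by less than between origins. Several related lists, given below, were mostly lower there too. The difference was below 0 for 59 of 76 members, 38 of 47 large and 21 of 29 small subunit genes, against 54.2% of genes kept. The medians were -0.25 for the large and -0.21 for the small subunit, against -0.05 for the genes kept. In limma's fit 0 members passed the adjusted threshold (smallest adjusted p 0.74), as did 0% of all probe sets. At an unadjusted p under 0.05, 8 members were lower (10.5%) and 0 higher, beside 3.39% and 2.61% of probe sets. That count was 0 with the arrays scaled to a common median, 0 without the intensity trend and 3 without the origin term. Without overlap between ploidies, 16 members were lower (21.1%, beside 17% of probe sets) and 4 higher (5.26%, beside 14%). The share of 21.1% is near that of all probe sets.

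By pair, the large subunit median was -0.30 between the parthenogenetic and -0.37 between the fertilized arrays, and the small subunit median -0.32 and -0.17. Lower in both pairs were 41 of 76 members (53.9%), higher in both 6, against 29.7% and 23.7% of the genes kept. In the parthenogenetic pair 4 members were at least 2-fold lower (12.9% of probe sets) and 1 higher (11.8%). In the fertilized pair 2 were at least 2-fold lower (11.2%) and 0 higher (7.66%). These comparisons use the same 4 arrays as those between origins, so a low parthenogenetic tetraploid value enters both.

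**Figure D4:**
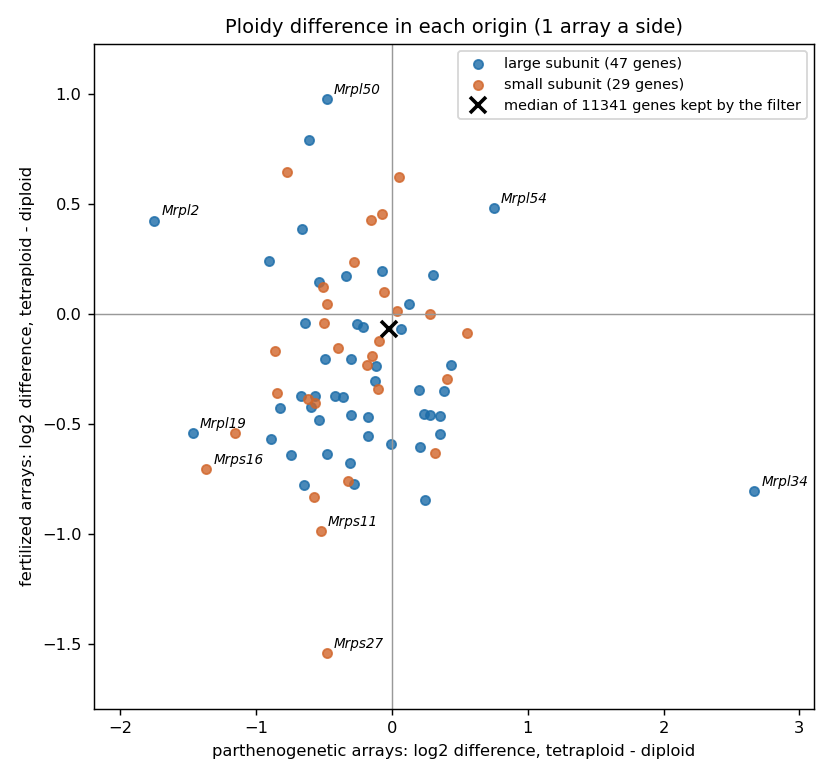
Log2 difference between tetraploid and diploid embryos for each member, on the parthenogenetic arrays (horizontal) and the fertilized arrays (vertical), with 1 array a side. Of 76 points, 41 lie in the lower left and 6 in the upper right, and the cross marks the median of all genes kept. Mrpl34 lies at 2.67 and -0.81 and Mrpl2 at -1.75 and 0.43.

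Single members by ploidy are given as 4 signals, first the diploid and tetraploid array of parthenogenetic and then those of fertilized embryos. Mrpl19, whose bacterial relative forms a bridge between the subunits, measured 817, 289, 933 and 638 (-1.004 ± 0.37, standard error with n = 2 arrays per ploidy, limma adjusted p 0.76). Mrps16, a protein with a bacterial counterpart, measured 480, 180, 486 and 294 (-1.04 ± 0.45, adjusted p 0.80). Both tetraploid values lay below both diploid ones in each gene, about 2.01-fold and 2.05-fold. Mrpl15, another protein of bacterial descent, measured 3362, 2146, 5630 and 3286 (-0.71 ± 0.25, adjusted p 0.74). Mrps18b, a paralog of Mrps18a, measured 1643, 731, 1869 and 1284 (-0.85 ± 0.30, adjusted p 0.74). Neither overlapped between ploidies, Mrpl15 by only a narrow margin (3286 against 3362), and both were also lower by origin within each ploidy. Mrpl40, mitochondria-specific, measured 1794, 1069, 2995 and 1916 (-0.69 ± 0.27, adjusted p 0.78), overlapping between ploidies, as its fertilized tetraploid value lay above its parthenogenetic diploid one.

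Mrpl2, which lies near the peptidyl transferase centre in bacterial ribosomes, measured 1191, 346, 957 and 1289. Its ploidy mean of -0.66 and its origin mean of -0.78 both rest on the single low parthenogenetic tetraploid value. Higher in the tetraploid pools were Mrpl54 (90.9, 160, 128 and 183, with both diploid values below the floor), Mrpl9 (2010, 2475, 2354 and 2668) and Mrps23 (1164, 1206, 1035 and 1600). Their groups did not overlap, at differences of 0.62, 0.24 and 0.34. The second probe set of Mrpl9 that passed the filter was at -0.19 by ploidy, and the further ones of Mrps23 were each at 0.09. Mrpl50 (1560, 1114, 1074 and 2124, 0.25), Mrpl33 (777, 1054, 940 and 801, 0.10) and Mrps25 (647, 615, 833 and 1146, 0.19) overlapped between ploidies. These 3 genes had opposite signs in the parthenogenetic and the fertilized pair.

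Further probe sets on the same arrays give another reading of some members. Beside the brightest, 57 dimmer probe sets of 32 members passed the filter. Their differences between origins were below 0 for 32 of 57 (median -0.23, 3 at an unadjusted p under 0.05 in limma's fit and 0 past the adjusted threshold). For the large subunit 26 of 40 were below 0, with a median of -0.35. For the small subunit 6 of 17 were below 0, with a median of 0.18, although the brightest probe sets of the same 10 genes were below 0 in 10 of 10 (median -0.28). Limited to the 44 that lay above the floor on all arrays, the medians were -0.36 (22 of 30 below 0) and 0.14 (5 of 14). The lower small subunit median in parthenogenetic embryos was thus seen in the brightest probe sets and not in the further ones.

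**Figure D5:**
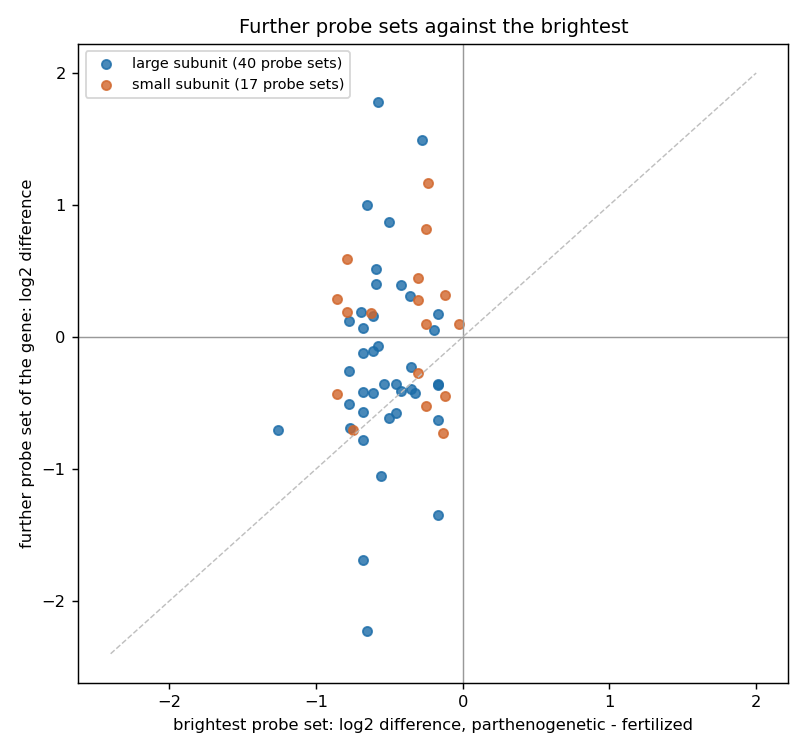
Log2 difference between parthenogenetic and fertilized embryos of each further probe set that passed the filter (vertical) against that of the brightest probe set of the same gene (horizontal), with a dashed line of equality. All points lie left of 0 on the horizontal axis, while 25 of 57 lie above 0 on the vertical axis, 14 of 40 for the large and 11 of 17 for the small subunit.

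Some disagreements were wide. For Mrpl28, a protein of bacterial descent, the brightest probe set measured 1890 and 2234 in parthenogenetic against 3916 and 2179 in fertilized embryos (-0.51), a second 626 and 749 against 1251 and 885 (-0.61), and another 2654 and 2187 against 1403 and 1224 (0.87). By the suffix of their identifiers, the last and the brightest are both sets whose probes may match other transcripts. For Mrps9 the brightest probe set gave -0.25 and a dimmer one, at 511 and 592 against 187 and 501, gave 0.82. For Mrps14 the values were -0.79 for the brightest and 0.19 for the next, which measured 1234 and 1533 against 1098 and 1319. For Mrps15 the second probe set gave -0.43 and a dim one 0.29. Further probe sets that differed by at least 2-fold from the brightest, in the opposite direction, were also found by origin for Mrpl1, Mrpl17, Mrpl19, Mrpl51 and Mrps2. By ploidy they were found for Mrpl1, Mrpl13, Mrpl17, Mrpl19, Mrpl34 and Mrpl57. The opposed sets of Mrpl1, Mrpl17, Mrpl51 and Mrps2 were dim, each at or below the floor on 1 or 2 arrays. The opposed probe set of Mrpl19 was at 0.12 by ploidy, beside -1.004 for the brightest and -0.66 for another that passed the filter. That of Mrpl34 was at -0.30 by ploidy, beside 0.93 for the brightest. The lowest adjusted p by origin among all kept probe sets of members was 0.12 in limma's fit, for a dimmer set of Mrpl15. It measured 421 and 359 in parthenogenetic against 1355 and 1200 in fertilized embryos (-1.69), and by its suffix its probes may match other transcripts. Other further sets of Mrpl15 that passed the filter ranged from -0.78 to 0.07, beside -0.68 for the brightest.

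The probe set shared by Mrpl30 and Gm6238 measured 1360 and 1273 in parthenogenetic against 1901 and 1966 in fertilized embryos (-0.55), and that shared by Mrpl53 and Ccdc142 measured 1211 and 719 against 1535 and 1174 (-0.52). Which gene of each pair they report cannot be told apart. Of 4 mitochondrial ribosomal proteins under other symbols with a probe set, 3 were lower. Among these, Gadd45gip1 was at or below the floor on 3 arrays and was not tested. Of the 3 genes tested, 0 passed the adjusted threshold. Chchd1, of the small subunit, measured 1152 and 390 against 1872 and 1768 (-1.42 ± 0.44, limma adjusted p 0.38), and Dap3, a GTP-binding protein of the small subunit, 1707 and 1162 against 2434 and 2088 (-0.68). Ptcd3, another pentatricopeptide repeat protein of the small subunit, measured 2349 and 1466 against 1672 and 1554 (0.20).

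Related genes, of mitochondrial gene expression and beyond it, were counted in lists chosen with earlier results known. In each of these lists, including the proteins under other symbols, 0 genes rose and 0 fell past the adjusted threshold, by origin or by ploidy. The genes tested numbered 124 over these lists, including 40 cytosolic ribosomal proteins, 13 genes that track mitochondrial mass and 11 transcription factors. At an unadjusted p under 0.05 in limma's fits, 9 of these 124 genes were lower by origin (7.26%, beside 4.19% of probe sets) and 1 higher (0.806%, beside 4.67%). By ploidy 11 were lower (8.87%, beside 3.39%) and 1 higher (0.806%, beside 2.61%). Of 12 translation factors, 8 were lower by origin, with a median of -0.36. Examples were Lrpprc, which stabilizes mitochondrial messenger RNAs (2584 and 1777 in parthenogenetic against 3222 and 3477 in fertilized embryos, -0.64), and Mrrf, the ribosome recycling factor (-0.52). Of 29 genes for ribosome assembly and rRNA modification, 20 were lower (median -0.20), among them Ngrn (-1.05). Ddx28, an RNA helicase of large subunit assembly, was at 1.58 (402 and 453 against 224 and 81.3). Its fertilized tetraploid value lay below the floor of 99.7 of that array, and its diploid pair alone was at 0.82.

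Mitochondrial transcription and DNA maintenance stood near the background, with 11 of 18 lower and a median of -0.05. Trmt10c, part of mitochondrial RNase P, was its lowest member (-1.69, at 118 and 72.2 against 329 and 313). Its parthenogenetic tetraploid value lay below the floor of 150.3 of that array, and its parthenogenetic diploid value was near the floor of 113.2. Genes that track mitochondrial mass, such as Cs and Vdac1, had a median of 0.01, with 6 of 13 lower. The transcription factors had a median of -0.002: Gabpa, the DNA-binding subunit of GABP, measured 1797 and 2215 against 2639 and 3231 (-0.55 ± 0.29, adjusted p 0.60), Nrf1 was at -0.19 and Yy1 at 0.23. Cytosolic ribosomal proteins, read on 41 single-gene probe sets, were lower in 29 of 41 with a median of -0.12. A probe set for a messenger RNA of the mitochondrial genome, ND5 of respiratory complex I, was looked up after the other results were known. It measured 4583 and 4840 against 7689 and 6742 (-0.61 ± 0.25, limma adjusted p 0.54). By ploidy, genes for ribosome assembly and rRNA modification were lower in 22 of 29 (median -0.34), below the medians of both subunits. Cytosolic ribosomal proteins were lower in 34 of 41 (-0.16), translation factors in 8 of 12 (-0.13) and mass genes in 6 of 13 (0.0007). The 7 epiblast and 6 primitive endoderm markers were all lower (-0.61 and -0.59). A lower median by ploidy was thus not particular to the members. All medians of these lists shift with the scaling of the arrays as those of the members do.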

How the data were processed

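RNA from 4 pools of mouse blastocysts was measured on 1 array each. The authors deposited linear intensity values, named as MAS5 in the submitters' processing notes. Scan dates and the MAS5 version were not used here. Probe sets were named from the platform annotation, and none with several genes was used for a member. Signals were analysed as log2(signal + 10). Of 45037 probe sets that are not controls, 23746 had a signal no lower than the array's median on 2 or more arrays and were kept. The tests used lmFit and eBayes (intensity trend) of limma 3.58.1 under R 4.3.3, with Benjamini-Hochberg adjustment and a threshold of 0.05. The fit by origin had no ploidy term, and the fit by ploidy had an origin term. The script was tested on simulated data. No pool was repeated, so p-values by origin take ploidy, pool and technical error as 1 spread. The members and lists were chosen with earlier results of these data known. Named members are the 5 (large) or 3 (small) highest and lowest by origin and by ploidy, those with another structural place and those with an opposed further probe set. Alternatives were the pseudocount, filter, scaling, probe set choice, block, trend and leaving out each array. Promoter windows are RefSeq's (GRCm38.p6), and the build used to design the probes was not used here. Protein sequences were not used here.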

Additional observations from a re-analysis of the deposited data

Results flagged for a closer look

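Some members had opposite signs in the pairs of arrays that were compared, among the members named for their size of difference. The difference between the pairs was not tested in any of them, since each pair has 1 array a side. By origin, Mrpl34 was at -2.99 between diploid and 0.48 between tetraploid pools, a gap of 3.47, and by ploidy at 2.67 between parthenogenetic and -0.81 between fertilized arrays, a gap of -3.47. Both gaps hold the same 4 signals. Mrpl37 was at 0.85 between diploid and -0.55 between tetraploid pools (gap -1.40), and Mrpl10 at 0.20 and -0.06 (gap -0.27). Mrps34 was at -0.28 and 0.36 (gap 0.64), and by ploidy at 0.55 in the parthenogenetic and -0.09 in the fertilized pair (gap -0.64).

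By ploidy, Mrpl2 was at -1.75 in the parthenogenetic and 0.43 in the fertilized pair (gap 2.18), and Mrpl50 at -0.48 and 0.98 (gap 1.46). Mrpl33 was at 0.44 and -0.23 (gap -0.66), and Mrps25 at -0.07 and 0.46 (gap 0.53).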

How the results depend on the processing

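Each condition rests on 1 pool and 1 array, and dim probe sets lie near the control floor. The median over the large subunit by origin (-0.42) and over the small subunit (-0.35) stayed below 0 under all alternatives but 1: over the further probe sets the small subunit median was 0.18. Scaling to a common median gave -0.74 and -0.66, and the mean of all probe sets of a gene -0.25 for the large subunit. Leaving out 1 array at a time, the large subunit ranged from -0.62 to -0.29 and the small from -0.63 to -0.24. Adjusted calls among members numbered 0 to 5 on leaving out 1 array, and 0 with ploidy as a block (smallest adjusted p 0.058) and under the other settings.

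By ploidy the medians of -0.25 and -0.21 stayed below 0. The large subunit was at -0.16 scaled to a common median, -0.20 under cyclic loess, -0.14 for the mean of all probe sets, -0.20 without sets ending in _x_at or _s_at and -0.17 over further probe sets. The small subunit was at -0.12 scaled to a common median and -0.052 over further probe sets. Leaving out 1 array leaves 1 intact pair, which gave -0.37 to -0.30 for the large and -0.32 to -0.17 for the small subunit, and no test was possible for lack of residual degrees of freedom.

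Scaled to a common median, 7 of 76 members changed sign by origin: Mrpl10 (-0.25), Mrpl16 (-0.26), Mrpl33 (-0.26), Mrpl35 (-0.28), Mrpl37 (-0.16), Mrps30 (-0.15) and Mrps34 (-0.28). By ploidy 6 did, all from just below to just above 0: Mrpl4 (0.0060), Mrpl49 (0.031), Mrpl51 (0.087), Mrpl57 (0.015), Mrps5 (0.025) and Mrps33 (0.066). Leaving out 1 array at a time, 27 of 76 members spanned 0 by origin and 29 by ploidy. Among those named by origin were Mrpl10 (-0.028 to 0.17), Mrpl17 (-0.62 to 0.060), Mrpl19 (-1.39 to 0.081), Mrpl34 (-2.59 to 0.078), Mrpl37 (-0.24 to 0.55), Mrps2 (-0.49 to 0.021), Mrps30 (-0.11 to 0.45), Mrps34 (-0.24 to 0.32) and Mrps36 (-0.73 to 0.10). Mrpl2 (-1.65 to 0.10) and Mrpl50 (-0.68 to 0.29), named by ploidy, spanned 0 by origin too. The labels give no replicate numbers to pair by.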
